A study of Mus musculus with 23 samples.

Results

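The nuclear genes for subunits of respiratory complex I were described in mouse connecting tubule and cortical collecting duct with and without induced deletion of the mineralocorticoid receptor. Members were the protein-coding genes whose symbol begins with Nduf followed by a, ab, b, c, s or v and a number, which leaves out the Ndufaf assembly factors. The rule found 37 genes among the 54393 in the deposited count table, and all 37 passed the filter on low counts that 25829 genes passed. Tubules had been dissected from kidneys of mice that all carried Pax8-rtTA, TRE-LC-1 and MRflox/flox, in which doxycycline switches on Cre recombinase in Pax8-expressing tubule cells and Cre removes the floxed part of Nr3c2, the receptor gene. In KO-NK (6 libraries) and KO-LK (6 libraries), mice had drunk 2 mg/ml doxycycline in 5% sucrose for 2 weeks, were kept for 2 more weeks without it on a rescue diet, and then ate a normal or a low potassium diet for 4 days. In CT-HK (6 libraries) and CT-NK (5 libraries), mice of the same genotype had drunk 5% sucrose without doxycycline and then ate a high or a normal potassium diet for 4 days. Knockout therefore also means doxycycline, the labels do not say whether control mice ate the rescue diet, and no age is given here. Whether different animals lie behind the libraries of a group is not stated in the labels, so p-values measure only the spread between these libraries, which may be technical. Pax8 drives the system in tubule cells beyond the connecting tubule too, and libraries of dissected tubule hold every cell type of the segment, so fewer cells of a type and less RNA per cell cannot be told apart.

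Complex I, the NADH:ubiquinone oxidoreductase, is the entry point for electrons from NADH into the respiratory chain of the inner mitochondrial membrane and uses the energy to pump protons. Its matrix arm holds the N module, which oxidises NADH, and the Q module, which reduces ubiquinone; its membrane arm holds the proton pumps, whose core is encoded in mitochondrial DNA. Around the core sit accessory subunits, all nuclear-encoded, that stabilise the complex and guide its assembly. Distal tubule cells reabsorb sodium against a gradient and are rich in mitochondria. The 37 genes comprised 3 core subunits of the N module, 4 of the Q module, 9 accessory subunits of the matrix arm, 9 of the proximal and 10 of the distal membrane arm, Ndufab1, the mitochondrial acyl carrier protein, and Ndufa4, which was named as a complex I subunit and is now assigned to complex IV. Ndufb1-ps (annotated as a long non-coding RNA) and Ndufa4l2 fell outside the rule.

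Sequence upstream of the genes was read from RefSeq promoters on GRCm38.p6, which held 33 of the 37. The 150 bases before the start are shown for the 4 members of smallest p in KO-LK against CT-NK, with capitals for letters that matched any of 6 motifs searched on both strands: the NRF1 palindrome, CCGGAAG (ETS factors such as GABP), CAAGGTCA (estrogen-related receptors), AAGATGGCG (YY1), GGGCGG (Sp factors) and the steroid receptor palindrome. In Ndufs3 the last Sp match runs into the ETS match.
Ndufb8 (chr19:44555443-44555592, minus strand): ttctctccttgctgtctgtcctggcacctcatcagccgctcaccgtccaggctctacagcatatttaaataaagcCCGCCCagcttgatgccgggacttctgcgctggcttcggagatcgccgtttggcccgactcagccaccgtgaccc
Ndufa8 (chr2:36049339-36049488, minus strand): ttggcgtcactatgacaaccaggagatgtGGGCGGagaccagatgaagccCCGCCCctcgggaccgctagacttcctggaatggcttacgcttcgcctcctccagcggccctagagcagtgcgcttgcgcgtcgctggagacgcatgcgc
Ndufa1 (chrX:37191239-37191388, minus strand): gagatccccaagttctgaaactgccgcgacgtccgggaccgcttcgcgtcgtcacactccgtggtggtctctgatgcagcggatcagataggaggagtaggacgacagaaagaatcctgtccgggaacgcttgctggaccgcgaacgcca
Ndufs3 (chr2:90904722-90904871, minus strand): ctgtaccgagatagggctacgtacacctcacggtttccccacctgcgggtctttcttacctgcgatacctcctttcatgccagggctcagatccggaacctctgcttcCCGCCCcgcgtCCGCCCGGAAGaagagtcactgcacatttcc

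Over the full windows, 250 bases before to 50 after the start, Sp letters were present in 15 of the 33 members (45.5%), against 38.2% of the 27025 genes with a window. ETS letters were present in 4 members (12.1%), against 9.93% of genes, and the NRF1 palindrome in Ndufa11 alone and the estrogen-related receptor letters in Ndufs5 alone, against 1.07% and 1.76% of genes. No member window held the steroid receptor palindrome, which 0.537% of genes held. YY1 letters stood in 5 members (15.2%), against 1.64% of genes, and are shown in capitals with 6 bases on each side because they are the set that the members share most often relative to all genes. They begin at base 23 in Ndufc1, 25 in Ndufs7, 30 in Ndufa9, 34 in Ndufs6 and 36 in Ndufs4, counted from the first transcribed base as 1. Of the 477 YY1 matches in all windows, 149 began between bases 20 and 40. The YY1 letters contain ATG, the letters of a start codon, and whether translation starts at these sites was not examined. The 27025 genes with a window were not restricted to protein-coding genes, of which the count table held 21847. The higher share in the members therefore cannot be read as a trait of their promoters. A match describes letters in a window and not a bound site.
Ndufc1 (chr3:51408919-51408939, minus strand): cggaacAAGATGGCGccgtcc
Ndufs7 (chr10:80249467-80249487, plus strand): gaggccAAGATGGCGgcgctg
Ndufa9 (chr6:126849101-126849121, minus strand): tgggagAAGATGGCGgccgcc
Ndufs6 (chr13:73328435-73328455, minus strand): accggcAAGATGGCGgcggtg
Ndufs4 (chr13:114388045-114388065, minus strand): tacaggAAGATGGCGgcggtc

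Libraries held 16158408 to 34154475 estimated counts. Nr3c2 was lower in KO-NK than in CT-NK, with a log2 fold change of -0.88 (edgeR adjusted p = 0.0373), and in KO-LK than in CT-NK, with -0.99 (adjusted p = 0.0134). The knockout libraries spanned 34.2 to 74.1 CPM of Nr3c2 (counts scaled to a common total per library) and the controls 66.6 to 151 CPM. Within the knockout range were CT-NK replicate 5 and, with CT-HK, replicate 6, the 2 libraries with the most proximal tubule transcripts. KO-NK replicate 3 had the lowest depth, the lowest share of counts on protein-coding genes (88.8%) and the highest counts on olfactory and vomeronasal receptor genes (9122 CPM). Principal cell markers of the labelled tissue were abundant in every library, at 6239 to 15612 summed CPM.

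Transcripts of complex I were less abundant in knockout tubules. The summed CPM of the 37 genes, scaled by the trimmed mean of M-values (TMM), was 7087, 8562, 4498, 7494, 8079 and 9459 in the KO-NK libraries and 6420, 8042, 5787, 7197, 8514 and 6272 in the KO-LK libraries. It was 14084, 15872, 12984, 9798, 12429 and 12665 in the CT-HK libraries and 12852, 10665, 13057, 9309 and 11319 in the CT-NK libraries. CT-NK replicate 4 was the only control library below any knockout library, and it lay below KO-NK replicate 6 alone. As a share of all counts, with no TMM scaling, the genes took 0.601% to 0.933% in knockout and 0.989% to 1.27% in control libraries, with no overlap. In deposited TPM, which divide by transcript length, the sums ran from 11431 to 17242 in KO-NK and 13347 to 16717 in KO-LK, against 16377 to 20281 in CT-HK and 16520 to 23559 in CT-NK, and the ranges overlapped.

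**Figure D1:**
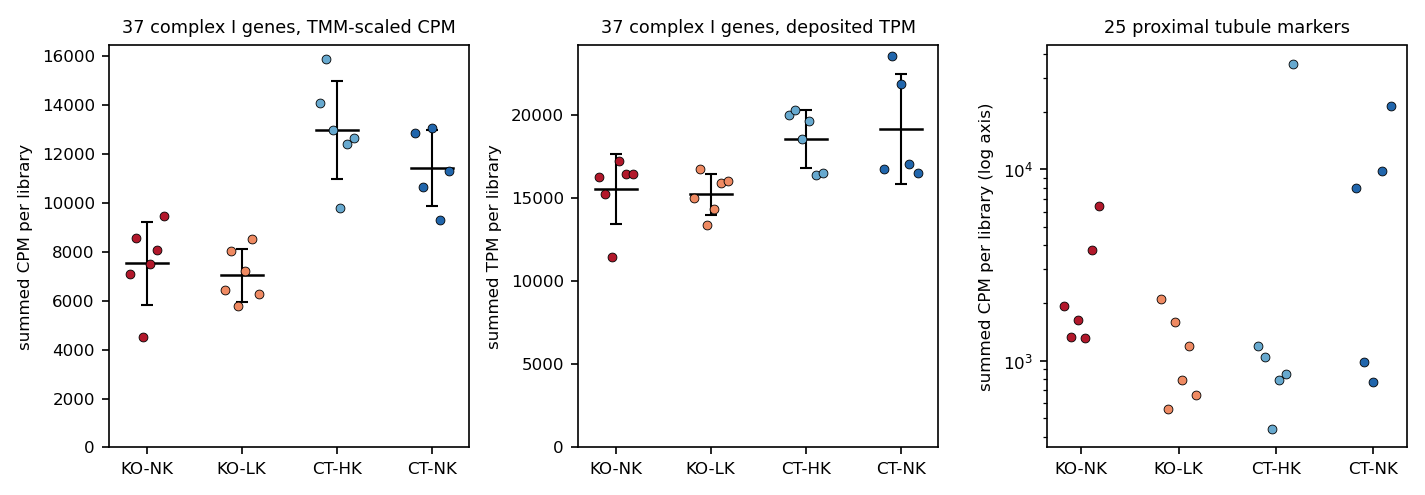
Each point is 1 library: summed TMM-scaled CPM of the 37 genes (left), their summed TPM (middle) and the summed CPM of 25 proximal tubule markers on a log axis (right), by group; lines are means and bars are SDs in the left and middle plots. Knockout sums lie at 4498 to 9459 CPM and control sums at 9309 to 15872 CPM, while the proximal tubule markers are highest in CT-HK replicate 6 and CT-NK replicate 5.

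Markers of other cells differed widely between libraries. The 25 proximal tubule markers, from cells that are themselves rich in mitochondria, summed to 1307 to 6442 CPM in KO-NK and 560 to 2105 CPM in KO-LK, against 438 to 35657 CPM in CT-HK and 768 to 21555 CPM in CT-NK. No marker on that list was at 0 in every library, and 24 of 25 had a negative log2 fold change in KO-NK against CT-NK, none of them passing the test. The medians were 1778 CPM in KO-NK and 994 CPM in KO-LK, against 942 CPM in CT-HK and 8019 CPM in CT-NK. Both knockout medians were thus below that of CT-NK and above that of CT-HK. The comparisons with CT-NK are also given below without the 2 libraries richest in these markers and adjusted for marker scores. Beyond that, the part of proximal tubule RNA in the complex I difference was not tested.

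The 7 connecting tubule markers, which belong to the labelled tissue, summed to 9787 to 18113 CPM in KO-NK and 6728 to 22734 CPM in KO-LK, against 21459 to 66822 CPM in CT-HK and 30008 to 42371 CPM in CT-NK. Among them the calcium-binding proteins Calb1 and S100g passed as lower in both knockout groups against CT-NK, and the kallikrein Klk1 in KO-NK only (adjusted p = 0.0408, against 0.0741 in KO-LK). The calcium channel Trpv5 went the other way, at 236 ± 69.1 CPM in KO-NK and 360 ± 120 CPM in KO-LK, against 148 ± 75.5 CPM in CT-NK, and passed as higher in KO-LK (adjusted p = 0.028). Slc8a1, Atp2b1 and Tmem52b gave no call against CT-NK, with log2 fold changes from -0.30 to 0.16. The share of counts on mitochondrially encoded genes was 7.93% to 13.4% in knockout and 10.8% to 21.4% in control libraries. The part of connecting tubule cell number in the complex I difference was not tested.

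With the same normal potassium diet, KO-NK against CT-NK asks what the deletion and its induction did. All 37 genes had a negative log2 fold change, 11 passed the test as lower (edgeR quasi-likelihood test, Benjamini-Hochberg adjustment over all genes, threshold 0.05) and none as higher. Of all genes tested, 0.763% passed as lower and 0.937% as higher. The median over the 37 genes was -0.58, against 0.15 over all tested genes. In 6 genes every KO-NK value lay below every CT-NK value, which was so for 1% of all genes.

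The lowest value was that of Ndufa1, a small X-linked subunit with a single membrane span in the proximal membrane arm, without which the complex does not form. Ndufa1 had 124, 225 and 292 CPM (lowest, median, highest) in KO-NK, against 510, 421, 494, 344 and 442 CPM in the CT-NK libraries. The groups did not overlap, and the log2 fold change was -1.01 ± 0.18 (SE; adjusted p = 0.00252). Leaving out any 1 of the 11 libraries kept this call.

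Ndufb8, a distal membrane arm subunit whose protein is widely used as a marker of assembled complex I, had 208, 362 and 422 CPM in KO-NK, against 640, 541, 640, 488 and 679 CPM in CT-NK. Again no knockout library reached a control library (-0.79 ± 0.17, adjusted p = 0.0137), although the call ended without CT-NK replicate 5. Ndufb2, of the distal membrane arm, had 68.7, 102 and 131 CPM in KO-NK, against 175, 191, 197, 131 and 148 CPM in CT-NK (-0.70 ± 0.16, adjusted p = 0.0207). Its highest KO-NK library and its lowest CT-NK library met at 131 CPM.

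Ndufa3, of the proximal membrane arm, had 63.4, 115 and 160 CPM in KO-NK, against 219, 245, 249, 149 and 179 CPM in CT-NK (-0.85 ± 0.20, adjusted p = 0.0241). CT-NK replicate 4 fell within the knockout range. The other 7 genes that fell were Ndufa11 and Ndufc1 of the proximal membrane arm, Ndufb9, a distal subunit of the LYR-motif family, Ndufv1, the N module core subunit that binds NADH and FMN, Ndufs6 and Ndufa2, accessory subunits of the matrix arm, and Ndufa4 of complex IV. Their log2 fold changes lay between -0.77 and -0.64.

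By role, 1 of 3 N module core genes, none of the 4 Q module core genes, 2 of 9 matrix arm accessory genes, 4 of 9 proximal and 3 of 10 distal membrane arm genes passed as lower. At an unadjusted p under 0.05, 35 of the 37 passed as lower, against 5.71% of all genes, and DESeq2 called 30, against 2.28% of all genes. The largest p-values belonged to Ndufb6 and Ndufs1. Ndufs1, which carries several iron-sulfur clusters of the N module, had 179, 313 and 337 CPM in KO-NK, against 480, 208, 405, 339 and 366 CPM in CT-NK (-0.31 ± 0.18, adjusted p = 0.59). CT-NK replicate 2, at 208 CPM, lay below 5 of the 6 KO-NK libraries. Ndufb6, a distal membrane arm subunit, had 157, 269 and 342 CPM in KO-NK, against 368, 281, 397, 285 and 314 CPM in CT-NK (-0.33 ± 0.23, adjusted p = 0.7), with the groups largely overlapping.

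The share of all genes called in refits without 1 library is not given here or below. The number of calls depended on single libraries. It was 24 without KO-NK replicate 3 or without KO-NK replicate 6, and 4 without KO-NK replicate 1, while it was 2 without CT-NK replicate 1 or 3 and 3 without CT-NK replicate 2 or 5. Without the 2 libraries richest in proximal tubule transcripts, 3 genes passed (0.46% of all genes) and the median was -0.60. Adjusted for scores of proximal tubule and thick ascending limb transcripts, 1 gene passed (0.441% of all genes) and the median was -0.54.

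**Figure D2:**
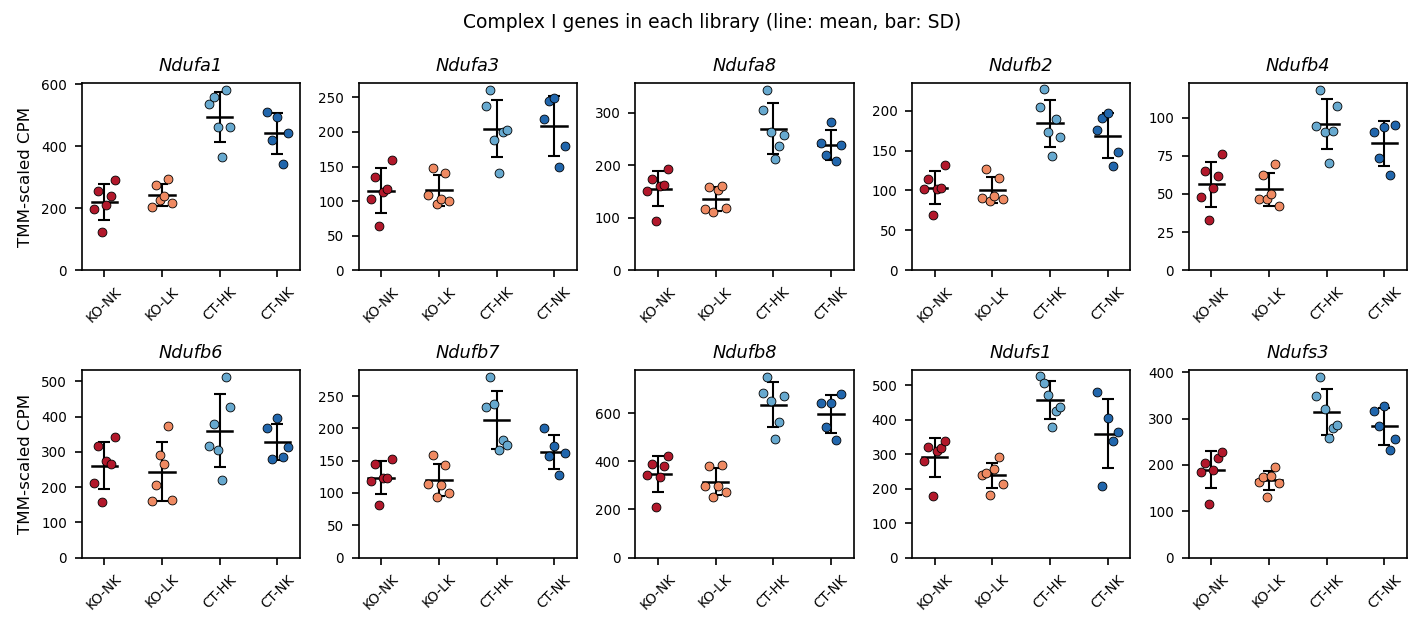
TMM-scaled CPM of 10 complex I genes in each library, by group, with the mean (line) and SD (bar); each axis starts at 0. Ndufa1, Ndufa8, Ndufb8 and Ndufs3 separate all 12 knockout from all 11 control libraries, while Ndufb6 overlaps in every comparison.

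KO-LK against CT-NK changes genotype and diet together, and shares its controls with the comparison above. All 37 log2 fold changes were again negative; 20 genes passed as lower (1.13% of all genes did) and none as higher (0.914% of all genes did). The median was -0.68, against -0.04 over all genes. In 19 genes no KO-LK library reached a CT-NK library, as in 1.46% of all genes. At an unadjusted p under 0.05, 36 passed as lower, against 6.42% of all genes, and DESeq2 called 34, against 3.11% of all genes.

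Ndufb8 had 253, 299 and 386 CPM in KO-LK, against the CT-NK values given above, which were all higher (-0.93 ± 0.17, adjusted p = 0.00334). Ndufa1 had 205, 233 and 295 CPM in KO-LK, also below every CT-NK library (-0.86 ± 0.18, adjusted p = 0.00873). Ndufa8, a cysteine-rich subunit on the intermembrane space side, had 111, 136 and 160 CPM in KO-LK, against 243, 220, 282, 207 and 239 CPM in CT-NK (-0.80 ± 0.16, adjusted p = 0.00845). Each of these calls was kept whichever of the 11 libraries was left out.

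Ndufs3, a core subunit at the base of the Q module, had 130, 169 and 195 CPM in KO-LK, against 317, 284, 328, 232 and 256 CPM in CT-NK. The groups were apart (-0.77 ± 0.16, adjusted p = 0.00895), and the call held without any 1 library. Ndufs7, a Q module core subunit beside the ubiquinone site, stood at -0.68 (adjusted p = 0.0328), and Ndufs8, which carries iron-sulfur clusters, at -0.67 (adjusted p = 0.0411). All 4 Q module core genes passed, and beside them 1 of 3 N module core genes (Ndufv1), 2 of 9 matrix arm accessory genes, 7 of 9 proximal and 5 of 10 distal membrane arm genes and Ndufa4 fell. The direct comparison of the 2 knockout groups, given below, called none of them.

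The largest p-values were those of Ndufb6 (-0.43 ± 0.23, adjusted p = 0.476) and Ndufb7 (-0.45 ± 0.18, adjusted p = 0.226). Ndufb6 had 160, 236 and 374 CPM in KO-LK, and Ndufb7, a distal subunit on the intermembrane space side, had 94.3, 113 and 159 CPM in KO-LK, against 201, 157, 173, 128 and 162 CPM in CT-NK. Ndufb7 overlapped through KO-LK replicates 2 and 5 and CT-NK replicates 2 and 4. The count of calls was 12 without KO-LK replicate 3 or CT-NK replicate 1 and 9 without CT-NK replicate 3. Adjusted for the 2 scores of tubule transcripts named above, no gene passed by edgeR (0.314% of all genes did), at a median of -0.59. Without the 2 libraries richest in proximal tubule transcripts, 15 passed (1.03% of all genes), at a median of -0.68.

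Against CT-HK, where the control diet was high in potassium, the differences in TMM-scaled counts had larger medians and passed more often, which was not so on the TPM scale given below. In KO-NK against CT-HK, 36 of the 37 genes were lower (3.32% of all genes) and none higher (2.46% of all genes), 21 of the 36 with no overlap (1.74% of all genes), at a median of -0.79 against 0.21 over all genes. In KO-LK against CT-HK, 36 were lower (3.29% of all genes) and none higher (2.2% of all genes), 30 of the 36 with no overlap (2.33% of all genes), at a median of -0.87 against -0.01. Both times Ndufb6 was the exception, at -0.46 ± 0.22 (adjusted p = 0.287) and -0.56 ± 0.22 (adjusted p = 0.172). Leaving out 1 library left 31 to 36 calls in each.

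Ndufa1 had 364, 499 and 581 CPM in CT-HK, above all KO-NK libraries (-1.17 ± 0.17, adjusted p = 0.000132) and all KO-LK libraries (-1.02 ± 0.17, adjusted p = 0.000494). Ndufb8 had 494, 662 and 751 CPM in CT-HK and Ndufa8 had 211, 261 and 345 CPM, also above both knockout groups. Ndufs1, which overlapped in KO-NK against CT-NK, had 378 CPM in its lowest CT-HK library, with a median of 456 CPM, and did not overlap with KO-NK (-0.66 ± 0.18, adjusted p = 0.025) or KO-LK (-0.94 ± 0.18, adjusted p = 0.0015). Ndufb7 separated likewise, with 166, 208 and 280 CPM in CT-HK (-0.78 and -0.82, adjusted p = 0.00548 in KO-NK and 0.00336 in KO-LK). In KO-LK against CT-HK the largest differences also included Ndufb11, an X-linked distal subunit, at -1.07 ± 0.18 and Ndufa10, a nucleoside kinase-like accessory subunit, at -1.05 ± 0.18.

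Ndufs4, which secures the N module to the rest of the matrix arm, fell in both comparisons with CT-HK (KO-NK -0.66, KO-LK -0.74). In the same order, so did Ndufa9, an NADPH-binding subunit near the junction of the arms (-0.83 and -0.97), Ndufa13, also known as GRIM-19 (-0.92 and -0.94), and Ndufab1, which carries acyl chains to the LYR-motif subunits (-0.63 and -0.75). In the comparisons with CT-NK these had stood at -0.39, -0.48, -0.69 and -0.41 in KO-NK and at -0.48, -0.62, -0.72 and -0.53 in KO-LK, of which only Ndufa13 in KO-LK passed. The direct comparison of the 2 control groups is given below.

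**Figure D3:**
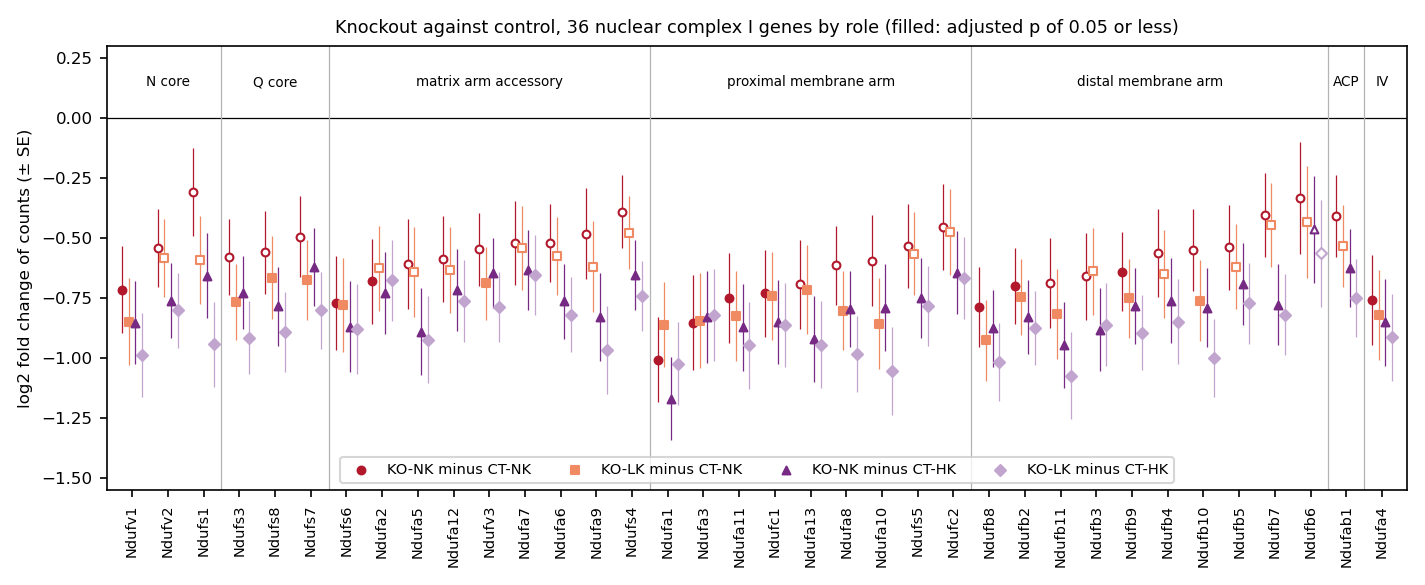
Log2 fold changes of counts (± SE, edgeR) of 36 of the genes, arranged by role, for 4 comparisons; filled symbols passed an adjusted p of 0.05. ACP is the acyl carrier protein Ndufab1 and IV is Ndufa4; every value is below 0, and Ndufb6 has no filled symbol.

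The diet alone gave no call. In CT-HK against CT-NK, 36 of the 37 log2 fold changes were positive, with a median of 0.18 against -0.01 over all genes, but edgeR called none of the 37 and 0% of all genes. Ndufb7 alone had an unadjusted p under 0.05 (0.37 ± 0.18, adjusted p = 1), as did 3.59% of all genes, and DESeq2 called none of the 37 and 0.0774% of all genes. In KO-LK against KO-NK, 33 were negative, with a median of -0.08 against -0.13 over all genes; none was called by edgeR (0% of all genes), by DESeq2 (0.0968% of all genes) or at an unadjusted p under 0.05 (2.83% of all genes). The values ran from -0.29 for Ndufs1 to 0.15 for Ndufa1. No complex I gene separated the 2 diets of either genotype without overlap. Of all genes, 0.0542% lay lower and 0.0697% higher in every CT-HK library than in every CT-NK library, and 0.166% lower and 0.108% higher in every KO-LK library than in every KO-NK library. The mean of the 2 knockout groups against the mean of the 2 control groups, in which diets differ, gave 36 lower genes (5.86% of all genes), all but Ndufb6 (-0.45 ± 0.16, adjusted p = 0.0807). In Ndufa1, Ndufa8, Ndufa11, Ndufb8, Ndufs3 and Ndufv1 all 12 knockout libraries lay below all 11 control libraries, as in 0.422% of all genes.

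Across genes, levels are comparable in TPM. Ndufa1 was the most abundant, at 1007 ± 154 TPM in KO-NK, 1149 ± 89.4 in KO-LK, 1558 ± 131 in CT-HK and 1591 ± 231 in CT-NK (SD over libraries). Its highest knockout library had 1245 TPM and its lowest control library 1322 TPM, so the groups stayed apart on this scale too. Ndufa4 came next at a mean of 1194 TPM, followed by Ndufb9 at 874 TPM and Ndufb8 at 841 TPM. The least abundant were Ndufb4 at 89.5 TPM, Ndufs1 at 111 TPM and Ndufb3 at 176 TPM. In Ndufb4, a distal membrane arm subunit, CPM were 33.1, 57.8 and 76.2 in KO-NK, 41.8, 48.6 and 69.8 in KO-LK and 70.5, 92.9 and 118 in CT-HK, against 90.8, 73.8, 93.7, 62.1 and 95.4 in the CT-NK libraries. Its level is uncertain, because the processed pseudogene Ndufb4c was itself counted at 22.5 to 96.4 CPM and near-identical reads could be split between them.

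The size of the differences depended on the scale. With limma on log2(TPM + 1), the median of the 37 genes was -0.24 in KO-NK and -0.29 in KO-LK against CT-NK, while against CT-HK it was -0.24 in KO-NK and -0.29 in KO-LK; the medians of all genes were 0.20, 0.13, 0.29 and 0.23. The complex I genes called lower were 7, 12, 5 and 12, in the same order, against 0.519%, 0.739%, 0.635% and 0.852% of all genes. Ndufb6, at 602 ± 90.8 TPM in KO-NK and 569 ± 143 in KO-LK against 553 ± 89.2 in CT-HK and 595 ± 79.2 in CT-NK, overlapped between all groups on this scale, with the highest mean in KO-NK and the lowest in CT-HK. Without TMM, on library totals alone, the count medians were -0.43, -0.48, -0.51 and -0.55, with 26, 31, 35 and 34 calls as lower (1.44%, 1.74%, 2.19% and 2.26% of all genes), and the medians of all genes were 0.34, 0.14, 0.51 and 0.28. There 1835 genes were called higher and 373 lower over the whole table in KO-NK against CT-NK, against 242 higher and 197 lower with TMM.

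Complex I transcripts are short, and the median fold change of short transcripts of all kinds was below 0 in knockout libraries. The longest annotated coding transcript had a median of 971 nt over the 37 genes, from 419 nt in Ndufa1 to 4371 nt in Ndufb2. Over 17479 tested protein-coding genes the median was 3092 nt. Annotated length need not be that of the expressed form. Ndufb2 averaged 138 CPM and 343 TPM, and Ndufs1 (2661 nt) 336 CPM and 111 TPM, so Ndufb2 was treated in TPM as the shorter. Among genes of up to 1000 nt, the 20 complex I genes had medians of -0.61 and -0.66 in KO-NK and KO-LK against CT-NK, and all 914 genes of that length -0.28 and -0.23. Among genes of 1000 to 2000 nt, the 12 complex I genes had -0.56 and -0.68 and all 3488 genes -0.10 and -0.10. The bins followed annotated length. In that bin Ndufc1 (1249 nt) averaged 169 CPM and 547 TPM, and Ndufs3 (1046 nt) 236 CPM and 243 TPM. Ndufc1 was thus treated in TPM as shorter than Ndufs3. Members may therefore be set against genes of greater expressed length, and the excess over genes of like length was not tested. With transcript length as an offset in edgeR, 6, 15, 32 and 33 genes passed in the 4 comparisons (KO-NK and KO-LK against CT-NK, then against CT-HK), at medians of -0.59, -0.64, -0.71 and -0.76. Of all genes, 0.705%, 0.96%, 2.35% and 2.16% passed as lower in that fit. The offset took the length implied by counts and TPM in each library, relative to the gene's own mean over libraries. It therefore allowed for changes of a gene's length between libraries and could not remove a trend across genes of different length.

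The 7 mitochondrially encoded subunits of the membrane arm core were also lower in count. Their log2 fold changes had medians of -0.81 in KO-NK and -0.91 in KO-LK against CT-NK, where 0 and 1 of 7 passed, and of -0.92 and -0.97 against CT-HK, where 5 and 6 passed. The 1 that passed in KO-LK against CT-NK was mt-Nd4l, with 215 ± 47.3 CPM in KO-LK and 406 ± 171 CPM in CT-NK (adjusted p = 0.0495). In KO-NK against CT-NK mt-Nd4l stood at -0.93 ± 0.24 (adjusted p = 0.0506), and all 7 had an unadjusted p under 0.05. The summed CPM of the 7 overlapped between genotypes, at 14929 to 30051 in knockout and 21173 to 54437 in control libraries.

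The 15 assembly factors, which build the complex but are not part of it, had smaller differences: their medians were -0.34 and -0.33 against CT-NK, where none passed (8 and 7 at an unadjusted p under 0.05), and -0.52 and -0.52 against CT-HK, where 8 passed in KO-NK and 6 in KO-LK. Ndufaf1, which helps build the membrane arm, had 20.8 ± 5.63 CPM in KO-NK and 32.4 ± 6.00 CPM in CT-NK (-0.64 ± 0.18, adjusted p = 0.0784). Foxred1, an assembly factor of the oxidoreductase kind, had 45.4 ± 6.45 CPM in KO-LK and 80.0 ± 15.2 CPM in CT-HK (-0.82 ± 0.18, adjusted p = 0.00566). No test of the difference between assembly factors and subunits was made.

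Nuclear subunits of complexes II to V also had lower counts. Of 39 such genes, 19 passed as lower in KO-NK and 27 in KO-LK against CT-NK, while 35 did so in KO-NK and 37 in KO-LK against CT-HK, with medians of -0.69, -0.78, -0.85 and -0.91 and none higher. Examples were Sdhc, a membrane anchor of complex II, at 121 ± 24.0 CPM in KO-NK and 231 ± 20.1 CPM in CT-NK (-0.93 ± 0.16, adjusted p = 0.00183), and Uqcrq of complex III at 213 ± 50.8 and 397 ± 54.0 CPM in the same groups (-0.90 ± 0.18, adjusted p = 0.00928). Cox7a2 of complex IV and Atp5g1, a ring subunit of ATP synthase, stood at -0.90 each (adjusted p = 0.0154 and 0.0106).

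Among 12 regulators of mitochondrial gene expression, none passed in either comparison with CT-NK (3 and 4 at an unadjusted p under 0.05). Esrra, which encodes the estrogen-related receptor alpha, a factor that binds promoters of respiratory chain genes, passed against CT-HK. Esrra had 26.9 ± 8.59 CPM in KO-NK and 29.4 ± 6.28 CPM in KO-LK, against 53.1 ± 17.6 CPM in CT-HK and 48.3 ± 14.8 CPM in CT-NK. Its log2 fold changes were -0.98 ± 0.24 (adjusted p = 0.0122) and -0.85 ± 0.23 (adjusted p = 0.0305) against CT-HK, and -0.84 (adjusted p = 0.0854) and -0.72 (adjusted p = 0.148) against CT-NK. Ppargc1a, the coactivator PGC-1 alpha, had 201 ± 24.4 CPM in KO-NK and 163 ± 31.4 CPM in KO-LK, against 211 ± 31.7 CPM in CT-HK and 182 ± 43.3 CPM in CT-NK, with no call. Nrf1, Gabpa, Gabpb1, Yy1 and Tfam, the mitochondrial transcription factor A, gave no call in any of the 4 comparisons, with values from -0.41 for Tfam to 0.47 for Gabpb1.

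**Figure D4:**
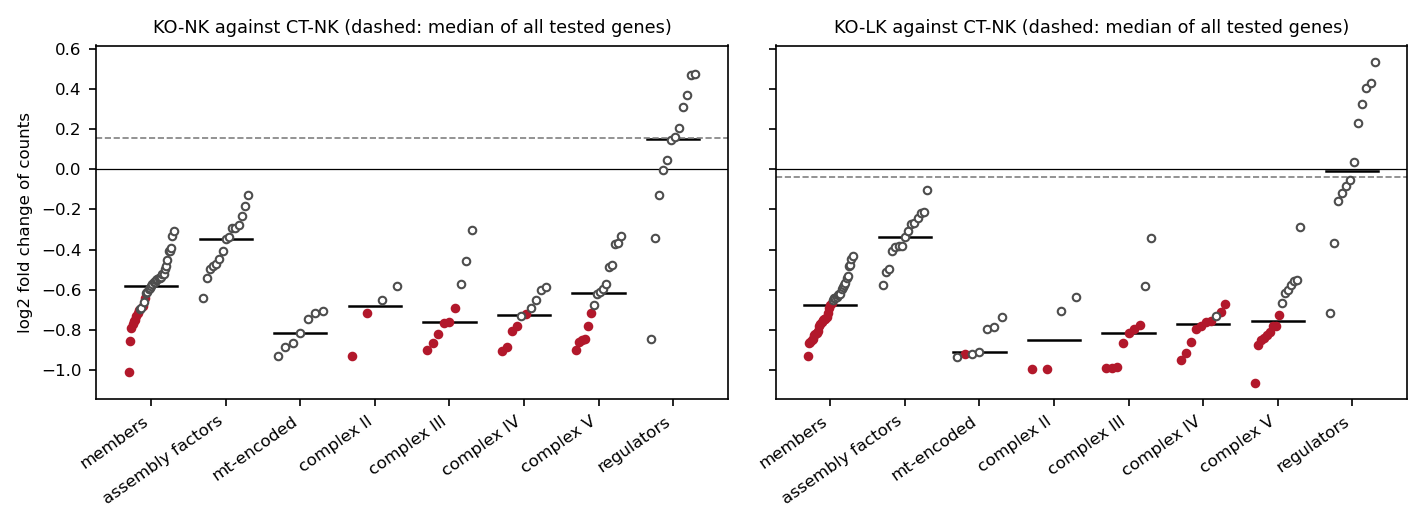
Log2 fold changes of counts of each gene in 8 lists, KO-NK against CT-NK (left) and KO-LK against CT-NK (right); each point is a gene, filled where the adjusted p was 0.05 or less, solid bars are list medians and the dashed line is the median of all tested genes. Subunits of complexes I to V lie below 0 throughout, and regulators lie on both sides of it.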

How the data were processed

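Salmon 0.14.10 and the build GRCm38.p6 are named in the submitters' processing notes. The authors deposited estimated counts per gene (35.9% not whole) and TPM for 54393 genes, all of which matched a GENCODE M21 symbol; the number of animals behind the libraries is not given in the sources used here. Counts were rounded and tested in edgeR 4.0.16 (R 4.3.3): default low-count filter, TMM scaling, 1 mean per group over all 23 libraries, quasi-likelihood tests and Benjamini-Hochberg adjustment over 25829 genes. Adjusted p-values come from edgeR except where DESeq2 or limma is given. CPM are scaled by TMM; errors beside means are SDs over libraries and those beside log2 fold changes are SEs. Without molecular identifiers, counts are not independent molecules.

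Values of single libraries are given for the 4 members of smallest and 2 of largest p in each comparison with CT-NK and for the highest and lowest TPM. Of other lists, up to 3 genes of smallest p per comparison and any regulator could be named. A member not reported here by name is kept in counts and sums. Members and lists were chosen with earlier results of these data known. The pipeline was tested on simulated counts for KO-NK against CT-NK, with changes put into genes drawn at random. It called 48% of 50 genes with a log2 fold change of -1 and 96% of 50 genes with -2. The spread in the simulation was estimated without regard to group, and the genes drawn were not matched to the complex I genes in level. These shares need not hold for the complex I genes. A gene without a call may still differ. No duplicated library was found among 55 pairs within groups. Alternatives were DESeq2 1.42.0, its size factors, upper-quartile scaling, no and stricter filters, limma 3.58.1 on log2(TPM + 1) and log2(TPM + 0.1), a length offset, a replicate block, cell type covariates, a robust fit, sets of libraries left out and each library left out. A fit without TMM was added after seeing the data, as were the bins of transcript length.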

Additional observations from a re-analysis of the deposited data

Results flagged for a closer look

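In 2 of 60 groups of library values checked, 1 library stood far from the rest of its group; chance gives about 1 in 20. Both were in KO-NK replicate 3, the library of lowest depth. Its Ndufs1 level was 179 CPM, against 279 CPM in the nearest and 337 CPM in the highest KO-NK library. Its summed TPM of the 37 complex I genes was 11431, against 15251 in the nearest and 17242 in the highest KO-NK library. Without this library, 24 complex I genes passed in KO-NK against CT-NK in place of 11.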

How the results depend on the processing

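For several settings below, the share of all genes called is not given here, so those counts of calls cannot be set against it. The counts of complex I genes called lower in KO-NK against CT-NK (11) and in KO-LK against CT-NK (20) moved with the processing, while all values stayed negative except as named. In the first they were 30 with DESeq2, 17 with its size factors in edgeR, 35 with upper-quartile scaling, 1 with no filter on low counts, 35 with a filter of 5 CPM in 5 libraries, 6 with a length offset and 2 with only the compared groups in the fit. They were 7 with log2(TPM + 1), 6 with log2(TPM + 0.1), 7 at a mean TPM of at least 1, 0 with TPM centred on each library's median, and 26 without TMM. Covariates for proximal tubule and thick limb gave 1 and for intercalated cells 19; leaving out the 8 libraries above 2500 CPM of chemosensory receptors gave 18 and the 2 richest in proximal tubule transcripts 3. In the second they were 34 with DESeq2, 36 with upper-quartile scaling, 1 with no filter, 36 with the stricter filter, 12 on both TPM scales, 0 centred, 0 with the tubule covariates and 31 without TMM. In KO-NK against CT-HK (36) the TPM scales gave 5, 5 and 7 and centring 12; in KO-LK against CT-HK (36) they gave 12, 11 and 16 and centring 11. Leaving out 1 library gave 2 to 24, 9 to 27, 31 to 36 and 31 to 36 calls in these 4, 36 to 37 in the pooled comparison and 0 to 0 for both diets. On the TPM scales Ndufs1 and Ndufb6 turned positive in KO-NK against CT-NK: 0.031, 0.031 and 0.031 for Ndufs1 and 0.012, 0.012 and 0.012 for Ndufb6 with 1, 0.1 and the TPM minimum. Ndufb6 was also positive in 3 settings each of KO-NK against CT-HK, KO-LK against CT-HK and the pooled comparison, where it was not called. The stricter filter left fewer genes to adjust over, and it was applied before the scaling and the estimate of the spread. The cause of these shifts was not tested, that of the filter included. Correlations of libraries with the same replicate number ran from -0.55 to 0.52. In KO-LK against KO-NK 4 of 6 pairs correlated best with their own number, and in CT-HK against CT-NK 2 of 5. Between genotypes at most 1 pair per comparison did so. The labels do not say what the numbers mark, and the main fit did not use them. The replicate block gave 7 calls in KO-NK against CT-NK and 18, 36 and 36 in the other comparisons of knockout with control groups. Estimated counts without molecular identifiers limit what depth can add to precision.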
